A study of Homo sapiens with 4 samples.

Results

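Circular RNAs listed under the prefix circRNA and a running number, with no number of the public catalogue circBase, made up 11927 of the 29586 identifiers that had at least 1 back-splice count over 4 libraries. A back-splice count is a sequenced read across the junction that closes a circle. The rule took every identifier of that form with at least 1 count, so 4850 members sat at the limit with exactly 1 count, and 28112 of the 40039 such identifiers in the table had 0 in every library. The other identifiers with a count were 4289 circBase numbers below 10000, 9662 circBase numbers from 10000 upward and 3708 ciRNA identifiers, the usual name for intronic circles. The circRNA prefix is the usual name for circles built from exons. The table gives no positions, host genes or sequences, so the exonic origin could not be checked and no sequence is printed.

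MiaPaCa-2 and PANC-1 are established human pancreatic ductal adenocarcinoma cell lines, and thymoquinone (TQ) is a quinone of black seed oil. The groups were untreated MiaPaCa-2, MiaPaCa-2 with 20 µM TQ for 24 h, untreated PANC-1 and PANC-1 with 10 µM TQ for 24 h, with 1 library each. The question was whether circRNA levels differ between treated and untreated cells. RNA of all groups was depleted of ribosomal RNA and digested with ribonuclease R, an enzyme that degrades linear RNA. Total back-splice counts were 15819 in the MiaPaCa-2 TQ library and 45094 to 67964 in the other 3. A ratio within a line compares 2 libraries, and has no replicate check. Fewer cells with a circle and fewer copies per cell cannot be told apart. Dose cannot be told apart from cell line, and the lines could not be checked against marker genes.

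A circular RNA forms when the spliceosome joins the end of an exon to the start of the same or an earlier exon of the transcript. The closed product has no free ends, so exonucleases spare it and it can build up in the cytoplasm. One gene can give several circles. Catalogues such as circBase hold circles seen in earlier data sets, and the abundant, widely expressed ones tend to be listed there. The circles described here are those that the submitters' annotation gave no such number.

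The circRNA-numbered circles were many and mostly rare. They were 40.3% of the identifiers with a count. In MiaPaCa-2 they took 22.4% of the counts of the untreated library (22.0 to 22.8, 95% interval by Clopper-Pearson) and 22.6% of the treated one (21.9 to 23.2). In PANC-1 they took 26.1% of untreated (25.8 to 26.5) and 26.4% of treated counts (26.1 to 26.8). Both PANC-1 libraries lay above both MiaPaCa-2 libraries, by 3.80 percentage points on average. With 2 libraries a line the exact permutation test, two-sided, gave p = 0.333, the smallest it allows. Intervals here cover counting error only, since each group had 1 library. They treat each read as a separate molecule, and PCR copies could not be told from separate molecules.

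The median circle had 2 counts over the 4 libraries, against 7 for circBase numbers below 10000, 2 for those from 10000 upward and 1 for ciRNA identifiers. A single count was the whole record of 40.7% of them, against 14.1% of the circBase numbers below 10000. It was 38.3% of those from 10000 upward and 53.6% of the ciRNA identifiers. At least 10 counts were reached by 644 circles (5.40%), and these held 42.2% of all counts of the set. At least 100 counts were reached by 17. The counts were spread over many circles: the 10 with most counts held 6.57% of the set's counts in untreated and 9.13% in treated MiaPaCa-2, and 11.3% in untreated and 10.6% in treated PANC-1.

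circRNA1218 had the most counts. It had 179 counts in untreated MiaPaCa-2 (154 to 207, exact Poisson 95% interval) and 69 in treated MiaPaCa-2 (53.7 to 87.3). In PANC-1 it had 513 without TQ (470 to 559) and 632 with it (584 to 683). Per 10000 back-splice counts of the library this was 39.7, 43.6, 105 and 93.0, so that it was a leading circle in all 4 libraries and more than 2-fold more frequent in PANC-1. circRNA12135, with 9, 4, 495 and 625 counts in the same order of libraries, was nearly as frequent as circRNA1218 in PANC-1 and rare in MiaPaCa-2. The next circles had far fewer. circRNA12647 had 36, 7, 49 and 101 counts. circRNA2738 had 107, 20, 18 and 45, and was the one of these 5 with its highest count in MiaPaCa-2 control. circRNA615 had 29, 7, 53 and 97. In MiaPaCa-2 TQ the leading circle was circRNA715, with 60, 79, 10 and 25 counts. Junction counts were not divided by length, so this is an order of junction reads.

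**Figure D1:**
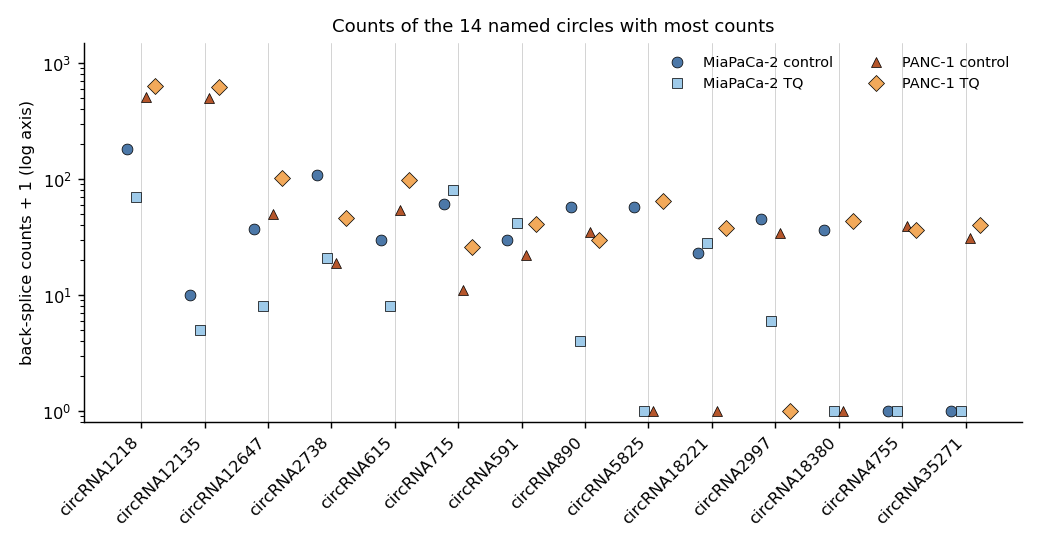
Back-splice counts plus 1 on a log axis for the 14 named circles with most counts, with 1 point for each of the 4 libraries; points at 1 are counts of 0. circRNA1218 and circRNA12135 stand above the rest in PANC-1 with 495 to 632 counts, and circRNA5825, circRNA18221, circRNA2997 and circRNA18380 have counts in 1 library of PANC-1 and 0 in the other.

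The identifier number itself followed the libraries. The highest number with a count was 18831 in untreated and 30176 in treated MiaPaCa-2, and 39699 in untreated and 56016 in treated PANC-1. Above that last number, the 7909 listed numbers up to 67333 had 0 counts in every library. Each library also filled a run of numbers completely, ending at its highest number. In MiaPaCa-2 control all 2454 listed numbers from 13830 to 18831 had a count, and in MiaPaCa-2 TQ all 665 from 29100 to 30176. In PANC-1 control this held for all 2289 from 36216 to 39699, and in PANC-1 TQ for all 2342 from 52698 to 56016. How the numbers were given is not stated in the sources used here, and its part in the results below was not tested. Whether one junction could be listed under different numbers in different libraries could not be checked, since the table has no coordinates. A count of 0, a restriction to a line and a call that rests on a zero are therefore statements about an identifier, not about a junction.

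**Figure D2:**
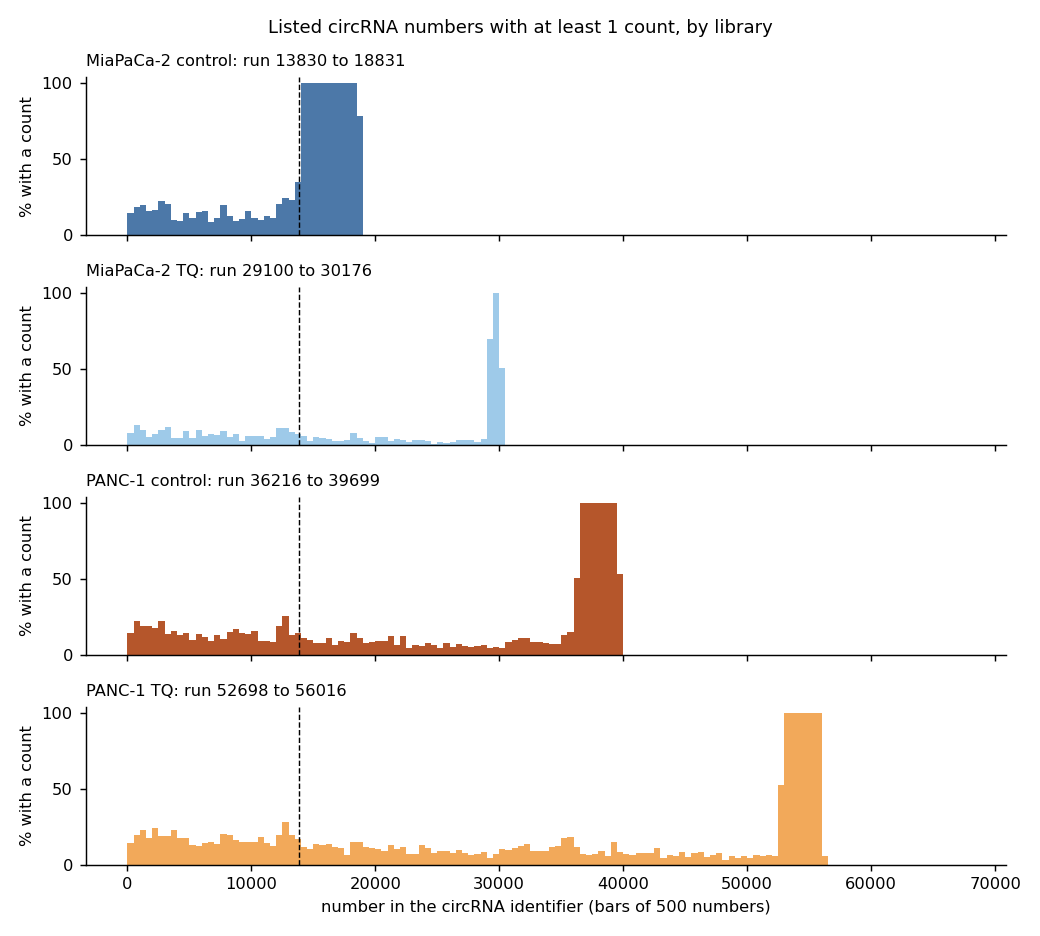
Share of listed circRNA numbers (percent, bars of 500 numbers) that had at least 1 count, against the number in the identifier, with 1 panel for each library. Each library reaches 100% over 1 run of numbers and has no count above it; the dashed line marks 13830, the start of the first run.

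These 4 runs, found by looking at the counts, held 7750 of the 11927 circles (65.0%) and 6957 of the 9930 circles seen in 1 library. The circles in them were rare. In the library that filled the run, the median was 2 counts for the MiaPaCa-2 control run and 1 for the other 3, and the highest count was 35. Circles of the MiaPaCa-2 control run also had counts in PANC-1 in 458 of 2454 cases, and those of the MiaPaCa-2 TQ run in 71 of 665. Circles of the 2 PANC-1 runs had 0 counts in both MiaPaCa-2 libraries, and the 2342 of the PANC-1 TQ run had 0 in PANC-1 control as well. Below the first run were 1891 circles (15.9%), with a median of 4 counts, and 424 of the 644 circles with at least 10 counts were among them. Their numbers, like those of the MiaPaCa-2 control run, did not exceed the highest number of any library. The split at the start of the first run was chosen after the data were seen.

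The circles numbered below the first run held shares of counts in the 4 libraries with overlapping intervals. In MiaPaCa-2 it was 11.3% without TQ (11.1 to 11.6) and 11.0% with it (10.6 to 11.5), and in PANC-1 10.9% without (10.7 to 11.2) and 11.2% with TQ (11.0 to 11.5), again as Clopper-Pearson 95% intervals. The higher share of the whole set in PANC-1 thus lay in higher numbers. Circles outside the runs but above the start of the first held 0% of untreated and 2.51% of treated MiaPaCa-2 counts. In PANC-1 they held 4.94% of untreated and 6.78% of treated counts. The 0% is set by the definition, since the run of MiaPaCa-2 control ends at its highest number. Libraries with a higher highest number had more such numbers open to them, so the order of these shares is in part built in.

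Most circles were seen in 1 library and in 1 line. Of the 11927, 9930 (83.3%) had counts in 1 library, against 32.3% of the circBase numbers below 10000, 65.8% of those from 10000 upward and 88.2% of the ciRNA identifiers. Counts in all 4 libraries were found for 163 circles (1.37%), against 19.5% of the circBase numbers below 10000. For those from 10000 upward it was 3.47% and for the ciRNA identifiers 1.11%. By line, 3177 circles (26.6%) had counts in MiaPaCa-2 alone, 7513 (63.0%) in PANC-1 alone and 1237 (10.4%) in both. The PANC-1 libraries held more counts, so all libraries were also brought to 15819 counts by exact rarefaction, the expected result of drawing that many reads at random. At equal depth 36.4% of the circles seen were in MiaPaCa-2 alone, 53.7% in PANC-1 alone and 9.88% in both. For the circles numbered below the first run the same shares were 34.3%, 35.4% and 30.3%, so that there the lines had nearly equal shares of their own.

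Detection in both lines was more frequent at higher counts, and the circRNA-numbered circles stayed below the circBase ones at the same total up to 49 counts. Among circles with 5 to 9 counts over the 4 libraries, 33.4% of 1190 were seen in both lines, against 61.6% of 820 circBase numbers below 10000 and 55.2% of 1384 from 10000 upward. With 20 to 49 counts it was 80.7% of 212, against 92.9% of 608 and 86.3% of 205. With 50 or more it was 92.1% of 63, between the 97.5% of 358 and the 86.0% of 57 in the circBase classes. The ciRNA identifiers also lay below both circBase classes from 2 to 49 counts, so this was not particular to the circRNA-numbered circles. They had 39.7% of 239 at 5 to 9 counts and 79.5% of 39 at 20 to 49. Numbers below the first run came nearer to circBase, with 45.8% of 395 at 5 to 9 counts and 89.3% of 169 at 20 to 49. These shares are descriptions, since identifiers of a library are not replicates.

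**Figure D3:**
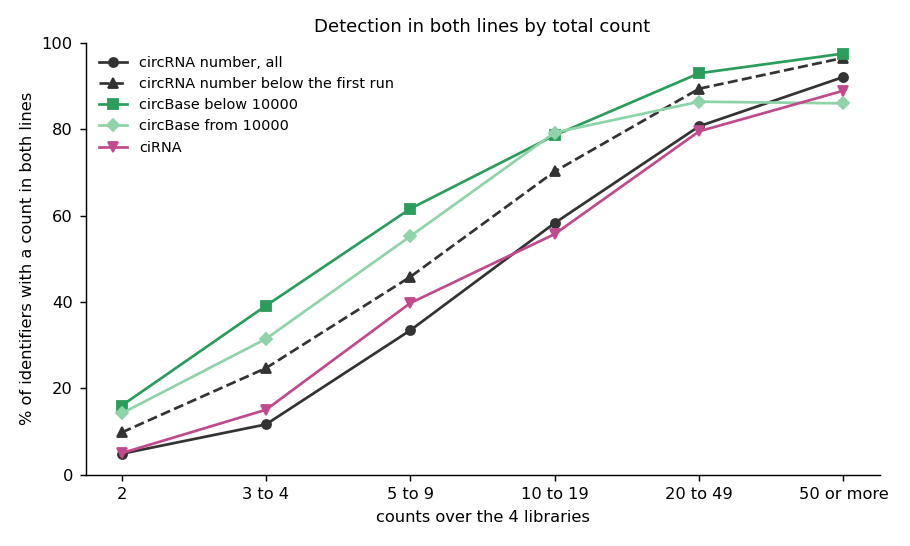
Percent of identifiers with a count in both lines, against their total count over the 4 libraries, for the circRNA-numbered circles, those numbered below the first run and the 3 other classes. The circRNA-numbered circles rise from 4.87% at 2 counts to 92.1% at 50 or more and lie below both circBase classes up to 49 counts. The ciRNA identifiers also lie below both circBase classes over that range.

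Restriction to a line was set as 0 counts in both libraries of the other line, with at least 1 count in each library of its own line and at least 10 over both. In MiaPaCa-2, 33 of the 156 circles that met the last conditions were restricted (21.2%), against 7.6% of all identifiers that met them. Of these 33, 25 were numbered below the first run. In PANC-1 it was 127 of 372 (34.1%), against 21.2% of all identifiers. Of these 127, 38 were numbered below the first run and 69 had numbers above the highest number with a count in either MiaPaCa-2 library. The other 20 had numbers from 18832 to 29099, where MiaPaCa-2 control had no counts. In that range 20 of the 24 circles that met the last conditions were restricted. Within the numbers below the first run, 17.9% of 140 circles were restricted to MiaPaCa-2 and 15.3% of 249 to PANC-1. The ciRNA identifiers had 20.0% of 40 and 45.6% of 57, and the circBase numbers from 10000 upward 6.04% of 149 and 27.5% of 484, so a high share was not particular to the circRNA-numbered circles. At equal depth the expected share was 24.0% for MiaPaCa-2 (17.7 of 73.7 expected circles) and 19.4% for PANC-1 (11.6 of 59.8). The order of the lines turned, but the Clopper-Pearson 95% intervals overlapped, at 14.8 to 35.4 and 10.3 to 31.7. In MiaPaCa-2 the share at equal depth lay between the 10.3% of circBase numbers from 10000 upward and the 29.5% of ciRNA identifiers. In PANC-1 it lay below the 26.3% and 25.9% of these classes, the last from 5.8 expected identifiers. The circBase numbers below 10000 had 4.74% and 7.05% at equal depth. Among circRNA numbers below the first run the share was 22.0% and 7.78% at equal depth.

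The restricted circles with most counts were moderate in level. circRNA13162 had 48 counts in untreated and 13 in treated MiaPaCa-2 and 0 in both PANC-1 libraries. Against a floor of 3 counts over the 2 PANC-1 libraries it was at least 34.3-fold higher in MiaPaCa-2. circRNA12358 had 36, 8, 0 and 0 counts and was at least 24.7-fold higher against that floor. In PANC-1, circRNA4755 had 0 counts in both MiaPaCa-2 libraries, 38 in untreated and 35 in treated PANC-1, at least 14.4-fold higher against a floor of 3 counts over MiaPaCa-2. circRNA35271 had 0, 0, 30 and 39 counts, at least 13.7-fold higher, and its number lies above 30176, where no circle had a MiaPaCa-2 count. These bounds leave out the counting error of the line that had counts. That all 4 had counts in the treated and the untreated library of their line was a condition of the rule.

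**Figure D4:**
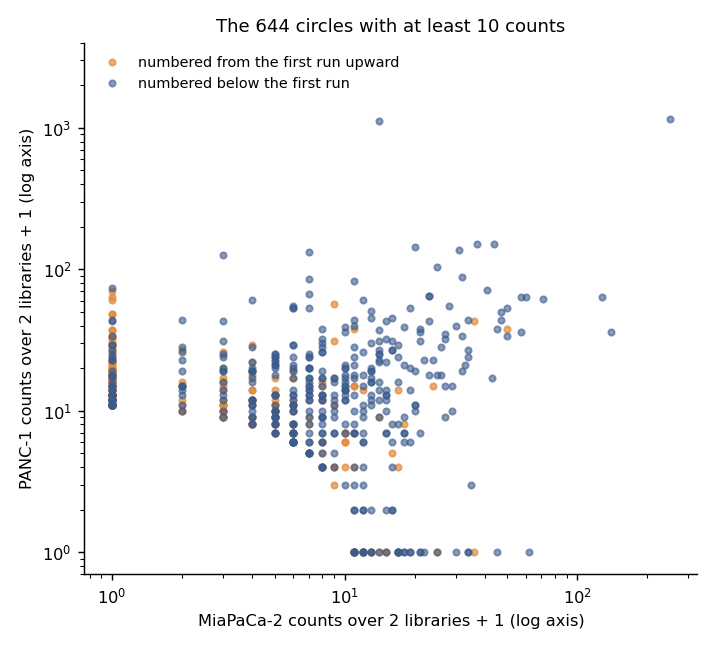
Counts over the 2 PANC-1 libraries against counts over the 2 MiaPaCa-2 libraries, each plus 1 on a log axis, for the 644 circles with at least 10 counts over all 4; points at 1 on an axis had 0 counts in that line. Circles numbered from the first run upward are orange, and all those numbered above 30176 sit at the left edge, with 0 in MiaPaCa-2.

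Between the lines, edgeR's quasi-likelihood test over all 827 identifiers that passed its filter on low counts, with terms for line and treatment, held 135 circRNA-numbered circles. One was higher in PANC-1 at a false discovery rate of 0.05 and 0 were lower, where 0.121% and 0% of all tested identifiers were called. This was circRNA12135, with a log2 fold change of 5.67 (SE 0.24, adjusted p = 0.0368, edgeR), and both PANC-1 libraries lay above both MiaPaCa-2 ones. At an unadjusted p under 0.05 there were 13 higher and 10 lower, against 80 and 66 of the 827. DESeq2 called 10 higher and 6 lower, against 52 and 27 of the 827. The median log2 fold change of the 135 was 0.11 (quartiles -1.37 and 1.71), against 0.23 for all tested (-0.94 and 1.54), and a fold change above 4 in either direction, a log2 value beyond 2, was fitted for 52 of the 135 (38.5%) and 31.6% of all. The next circles missed the threshold. circRNA1218 had a log2 fold change of 1.49 toward PANC-1 (SE 0.16, adjusted p = 0.184, edgeR), with groups that did not overlap. circRNA715 had -3.01 (SE 0.39, adjusted p = 0.184, edgeR), with 60 and 79 counts in MiaPaCa-2 against 10 and 25 in PANC-1. The 2 libraries of a line differ in treatment and stand for its spread. Fits of 3 libraries hold no treatment term, and 3 of the 4 called more. Without MiaPaCa-2 control 68 of 219 circles were higher and 13 lower, against 340 and 92 of 1260 identifiers. Without MiaPaCa-2 TQ it was 25 and 12 of 239, against 139 and 73 of 1346, and without PANC-1 TQ 12 and 9 of 198, against 47 and 31 of 1154. Without PANC-1 control it was 1 and 0 of 205, against 1 and 0 of 1195.

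For TQ over control within a line, a circle was called on 3 conditions. Its 2 libraries had to hold 10 counts or more, its ratio after scaling had to reach 2 or fall to 0.5, and the ratio's exact 99% interval had to leave out 1. In MiaPaCa-2, 199 circles had enough counts. Of these 14 (7.04%) were called higher and 15 (7.54%) lower in the TQ library, where 4.07% and 6.55% of all tested identifiers were called. A zero lay behind 5 of the 14, at 0 in control, and 10 of the 15, at 0 in TQ. Among the 156 with counts in both libraries 9 were higher (5.77%) and 5 lower (3.21%), against 3.91% and 3.27% of all, close to that background. The balance followed the scaling. It was 18 higher and 12 lower with total counts, 11 and 19 with DESeq2 size factors, and 8 and 26 with TMM over every identifier. The median log2 ratio of the 199 was -0.06 against -0.13 for all 1130 tested. It was 0.19 and 0.12 with total counts, -0.25 and -0.32 with DESeq2 size factors and -0.55 and -0.62 with TMM over every identifier. The circles that passed the minimum include those that passed through 1 library alone, so the medians are descriptions.

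Named by their intervals, 2 circles led those higher in MiaPaCa-2 TQ with counts in both libraries. circRNA715 had 60 counts without TQ and 79 with TQ, in the shallower library, and its scaled ratio was 3.16 (99% interval 2.01 to 5.01). circRNA591 had 29 and 41, a ratio of 3.39 (1.78 to 6.62). In PANC-1 the ratios of these circles were 1.81 (0.680 to 5.55) and 1.38 (0.677 to 2.95), above 1 with intervals that included it. On the lower side, circRNA890 went with 56 counts without and 3 with TQ, at a ratio of 0.129 (0.0140 to 0.505). circRNA2177 had 25 and 1, a ratio of 0.0960 (0.000463 to 0.812). In PANC-1 circRNA890 had 34 and 29 counts, a ratio of 0.617 (0.309 to 1.22), and circRNA2177 4 and 4.

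In PANC-1, 438 circles had enough counts, and 43 (9.82%) were called higher and 29 (6.62%) lower in TQ, where 5.68% and 3.19% of all tested identifiers were called. Nearly all of these calls rested on a zero, with 40 of the 43 at 0 in control and 26 of the 29 at 0 in TQ. At this depth a 0 in either PANC-1 library met the rule at once for a circle with 10 counts. Among the 372 circles with counts in both libraries 3 were higher and 3 lower (0.806% each), against 0.982% and 1.45% of all identifiers with counts in both. The ratios of the 372 had a median of 1.03, and 276 of them (74.2%) were within 2-fold, against 96 of 156 (61.5%) in MiaPaCa-2. Over all 438 circles, with 1 count added to each library, the median log2 ratio was 0.02, against -0.05 for all tested. By number, 21 of the 43 and 15 of the 29 were below the first run, and 6 of the 43 had numbers above 39699, where PANC-1 control had no counts.

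**Figure D5:**
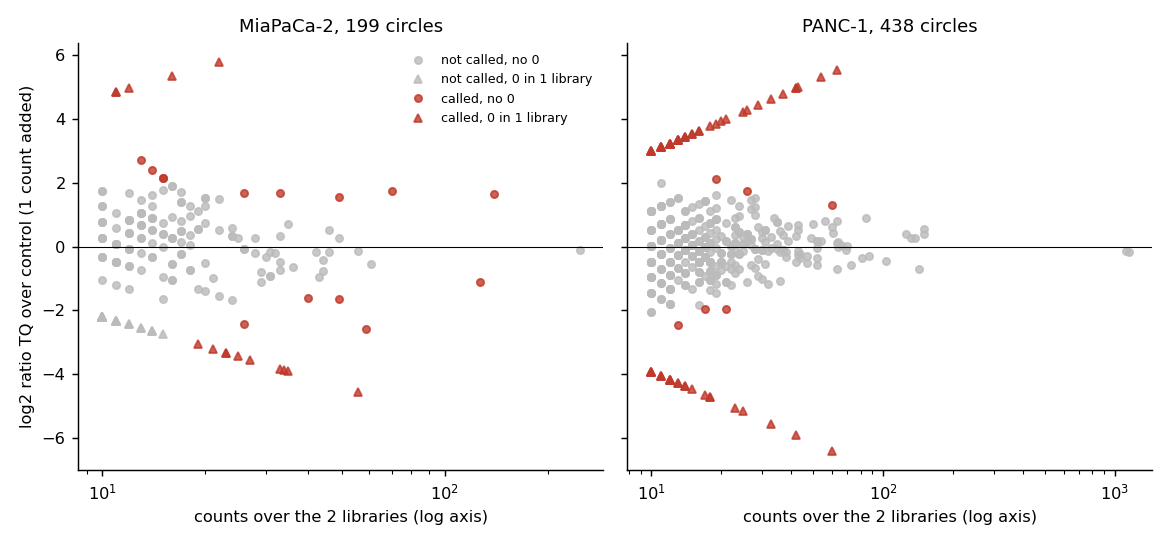
Log2 ratio of TQ over control (1 count added to each library, scaled by TMM) against counts over the 2 libraries on a log axis, for the 199 MiaPaCa-2 and 438 PANC-1 circles with at least 10 counts in that line. In PANC-1 the 66 circles with a 0 in 1 library (triangles) lie apart from the 372 with counts in both (points), of which 6 were called.

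The PANC-1 circles called with counts in both libraries were of modest level. circRNA12566 had 13 counts without and 47 with TQ, at a ratio of 2.62 (99% interval 1.17 to 6.62). circRNA3106 had 2 and 17, a ratio of 6.15 (1.07 to 129). On the lower side circRNA34809 had 16 and 5, a ratio of 0.226 (0.0424 to 0.847), and 0 in both MiaPaCa-2 libraries. Its number lies above 30176, where no circle had a MiaPaCa-2 count. circRNA2174 had 11 and 2, a ratio of 0.132 (0.00602 to 0.853).

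Zeros opposite 10 or more counts were next examined within each line. Of 149 circles with at least 10 counts in PANC-1 control, 26 (17.4%) had 0 in TQ, 3 had 1 to 4, 19 had 5 to 9 and 101 had at least 10. The TQ library was the deeper of the 2. Of 558 circBase numbers below 10000 with at least 10 counts in PANC-1 control, 12 (2.15%) had 0 in TQ and 15 had 1 to 4, and of 142 from 10000 upward 4 (2.82%) had 0 and 11 had 1 to 4. Among circles numbered below the first run it was 13 of 111 (11.7%) at 0 and 2 at 1 to 4. In the other direction, 40 of 223 circles with at least 10 counts in PANC-1 TQ (17.9%) had 0 in control and 26 (11.7%) had 1 to 4, so that low counts beside the zeros were more frequent here. In the circBase classes 46 of 786 (5.85%) and 22 of 212 (10.4%) had 0, and 63 (8.02%) and 33 (15.6%) had 1 to 4. In MiaPaCa-2, 38 of 123 with at least 10 counts in control (30.9%) had 0 in the shallower TQ library, against 19.2% and 24.3% in the circBase classes. There 5 of 32 with at least 10 in TQ (15.6%) had 0 in control, against 3 of 179 (1.68%) and 0 of 22 in the circBase classes.

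Circles with large counts were among these. circRNA32840 had 60 counts in PANC-1 control and 0 in the other 3 libraries, at least 27.6-fold lower in PANC-1 TQ against a floor of 3 counts there (upper 99% limit of the ratio 0.0668). Its number lies above 30176, where no circle had a MiaPaCa-2 count. circRNA2993 was seen in treated MiaPaCa-2 (22 counts) and untreated PANC-1 (42) and had 0 in the other 2 libraries. Against the floor of 3 counts it was at least 17.6-fold higher in treated MiaPaCa-2 and at least 19.3-fold lower in treated PANC-1, with a lower 99% limit of the ratio of 8.81 in the first and an upper one of 0.0973 in the second. circRNA5825 had the reverse pattern, with 56, 0, 0 and 63. Of the 275 circles with at least 20 counts, 8 had counts in MiaPaCa-2 control and PANC-1 TQ alone, as circRNA5825 did, and 2 in MiaPaCa-2 TQ and PANC-1 control alone. Among 966 circBase numbers below 10000 with at least 20 counts it was 3 and none, and among 262 from 10000 upward 1 and none. None of 48 ciRNA identifiers with at least 20 counts had either pattern. Of the 275 circles, 3 had counts in both controls alone and 3 in both TQ libraries alone, against 3 and 1 of the 966. circRNA12975 had 0, 5, 0 and 54 counts, so that it was seen in both TQ libraries and in neither control. The lower 99% limit of its PANC-1 ratio was 7.02, and its 5 MiaPaCa-2 counts were under the minimum. circRNA13346 had 16 counts in MiaPaCa-2 TQ and 0 elsewhere, at least 12.8-fold higher there than in control against the floor (lower 99% limit 6.11).

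Both lines could be judged for 111 circles. Of these 2 were called higher in TQ in both, 2 lower in both, 3 lower in MiaPaCa-2 and higher in PANC-1, and 1 the other way. Of all 777 identifiers that could be judged in both lines these counts were 3, 3, 4 and 1, members included. The 2 higher in both were circRNA18221, with 22, 27, 0 and 37 counts, and circRNA5826, with 0, 12, 0 and 15. The 2 lower in both were circRNA2997, with 44, 5, 33 and 0, and circRNA2950, with 19, 0, 10 and 0. Each of the 4 had a 0 in at least 1 library. Among 81 circles with counts in all 4 libraries and at least 10 in each line, 21 had ratios above 1 in both lines, 14 below 1 in both, 23 above 1 in MiaPaCa-2 alone and 23 above 1 in PANC-1 alone. The Pearson r of their log2 ratios was -0.11 and the Spearman rho -0.11, which describes circles of the same 4 libraries. All 653 such identifiers had 131 above 1 in both, 158 below 1 in both and 167 and 197 on opposite sides, with an r of -0.17 and a rho of -0.14. With the lines as replicates, edgeR's quasi-likelihood test called 0 of the 135 circles higher and 0 lower in TQ, as it did for 0% of all 827 tested. At an unadjusted p under 0.05 it gave 3 higher and 0 lower, against 4 and 1 of the 827. DESeq2 called 0, with 4 higher and 1 lower unadjusted, against 5 and 2 of the 827. The lowest adjusted p was 0.998 (edgeR). circRNA715 had a log2 fold change of 1.31 (SE 0.38, adjusted p = 0.998, edgeR), with a ratio above 1 in both lines. Fits that left out a library held no term for line and had 1 library in a treatment group. They could not separate line from treatment, and their calls are not read.

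The 4 libraries were also compared over the 644 circles with at least 10 counts. The Spearman rho was 0.41 between the 2 MiaPaCa-2 libraries and 0.34 between the 2 PANC-1 libraries, and -0.09 to 0.00 between libraries of different lines. For 1745 circBase numbers below 10000 it was 0.51 and 0.64 within the lines and 0.25 to 0.31 between them. For circBase numbers from 10000 upward it was 0.37 and 0.36 within and -0.15 to -0.03 between the lines, near the values of the circRNA-numbered circles. The circles were chosen by their total over these same libraries, and the correlations are descriptions. Between PANC-1 control and TQ, 457 of the 644 (71.0%) had counts in both. It was 86.6% of the circBase numbers below 10000, 83.7% of those from 10000 upward and 72.0% of the ciRNA identifiers.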

How the data were processed

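The authors deposited whole-number back-splice counts per identifier for 4 libraries, and the values show no scaling. Per the submitters' processing notes, reads were handled with FastQC, cutadapt, TopHat, TopHat2, Bowtie2 and edgeR, on GRCh38.p13. The circRNA caller was not given in the sources used here. Per the labels' protocols, RNA was treated with Ribo-Zero and ribonuclease R. The members and tests were chosen with earlier results of these data known. Library scales came from TMM on the 827 identifiers passing filterByExpr, giving TQ over control scales of 0.417 in MiaPaCa-2 and 1.38 in PANC-1. Ratios carry exact conditional binomial intervals. Fits covered the whole table, with Benjamini-Hochberg adjustment and 1 residual degree of freedom, and each SE was taken from the F statistic. No source used here says whether the libraries were separate cultures. Scripts were tested on simulated data. Named circles were the 5 with most counts, the leader of each library, and per comparison and direction the 2 that were most extreme by interval, p or count. Alternatives covered scaling, minimums, intervals, filter, DESeq2, model terms and left-out libraries. Computing used scipy 1.17.1 and numpy 2.4.6 in Python 3.11.15, and DESeq2 1.42.0 and edgeR 4.0.16 in R 4.3.3.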

Additional observations from a re-analysis of the deposited data

Results flagged for a closer look

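The following 2 circles were called in opposite directions in the lines, and the difference between the lines was not tested, since each line had 1 library per treatment. circRNA5825 had 56 counts in untreated and 0 in treated MiaPaCa-2, but 0 in untreated and 63 in treated PANC-1. Against a floor of 3 counts in the library at 0 it was at least 7.78-fold lower in MiaPaCa-2 TQ and at least 15.2-fold higher in PANC-1 TQ. These bounds leave out the counting error of the library with counts. The 99% limits are more cautious, with a ratio of at most 0.238 in MiaPaCa-2 and of at least 8.25 in PANC-1. circRNA18380 likewise went from 35 counts to 0 in MiaPaCa-2 and from 0 to 42 in PANC-1, at least 4.86-fold lower and at least 10.1-fold higher against that floor, with 99% limits of 0.392 and 5.38. Its number lies in the MiaPaCa-2 control run, where every listed number had a count in that library. That of circRNA5825 lies below the first run.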

How the results depend on the processing

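The counts of called circles moved with the settings. The number tested also changed. Where no share over all identifiers is given, a shift of these circles cannot be told from one of the whole table. In MiaPaCa-2, 14 of 199 were higher and 15 lower as reported. TMM over every identifier gave 8 higher and 26 lower of 199, and a 95% interval 31 lower of 199. No minimum of counts gave 58 higher of 4414, and at least 20 counts 6 higher of 61. With counts in both libraries it was 9 higher and 5 lower of 156, against 3.91% and 3.27% of all identifiers. In PANC-1, 43 of 438 were higher and 29 lower as reported. No minimum gave 62 lower of 8750, and at least 20 counts 14 higher and 6 lower of 155. With counts in both libraries it was 3 higher and 3 lower of 372, against 0.982% and 1.45% of all identifiers. Numbers below the first run, an alternative chosen after the data were seen, gave 21 higher and 15 lower of 280. The share restricted to MiaPaCa-2, 21.2% as reported, was 29.2% with at least 5 counts. In the control libraries alone it was 30.9%, against 14.7% of all identifiers. The share restricted to PANC-1, 34.1% as reported, was 21.0% with at least 20 counts and 51.3% with at least 5. In the control libraries alone it was 26.2%, against 16.6% of all identifiers. In the TQ libraries alone it was 60.1%, against 42.4% of all. It was 19.4% at equal depth and 15.3% among numbers below the first run.

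Leaving out identifiers with few counts lowered, and leaving out ciRNA raised, the share of counts held by these circles, given here for MiaPaCa-2 without and with TQ and then PANC-1 without and with TQ. It was 21.3%, 21.5%, 24.8% and 25.1% among identifiers with at least 2 counts, 14.5%, 14.7%, 17.4% and 17.6% among those with at least 10, and 24.2%, 24.9%, 27.5% and 27.4% with no ciRNA identifiers. In each of these both PANC-1 libraries were above both MiaPaCa-2 libraries.

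Between the lines, 1 of 135 was higher and 0 lower as reported. With no filter edgeR gave 2 higher and 1 lower of 11927, against 10 and 5 of all 29586 identifiers. With no term for treatment it gave 19 and 18 of 135, against 92 and 66 of all 827. DESeq2 gave 10 and 6 of 135, against 52 and 27 of all 827. Leaving out each library in turn gave 1 to 68 higher and 0 to 13 lower, and for TQ 0 to 1 higher and 0 lower. The cause of these changes was not tested. The edgeR fit for TQ compares the treatments with cell line as a term. A block by replicate number could not be fitted, since each group had 1 library and the labels carry no such numbers. The depth of 15819 counts in MiaPaCa-2 TQ limits what can be seen there: a circle at 0 in that library need not be absent.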

Other observations

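The ciRNA identifiers, listed as 1 to 13488, had runs of the same kind, each filled by 1 library and ending at its highest number. MiaPaCa-2 control had a count for all 1169 listed numbers from 3117 to 4306 and MiaPaCa-2 TQ for all 408 from 5758 to 6167. PANC-1 control had one for all 708 from 6861 to 7578 and PANC-1 TQ for all 547 from 9947 to 10512. The order of the libraries was thus the same in both numberings.

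Between its lowest and highest number, 4 and 67333, the circRNA numbering lacked 27291 numbers, and the table held 27646 circBase identifiers.

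Below the first run, likeness of the line ratios showed no steady change with distance in number. Among 67 pairs of consecutive numbers with at least 10 counts each, 35 had PANC-1 over MiaPaCa-2 ratios on the same side of 1, with a Pearson r of 0.17. Among 39 pairs that lay 50 numbers apart it was 19, with an r of -0.06, and among 28 pairs that lay 100 apart 17, with an r of 0.16. These values are descriptions, since the pairs share circles and libraries.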
